A study of Mus musculus with 6 samples.

Results

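Mature kidney tubules move salt, water, sugars, amino acids and organic ions across an epithelium through transporters and channels, and 37 genes for such proteins were followed here in embryonic mouse kidneys. The members are carriers, channels, pump subunits and segment proteins of the adult nephron and collecting duct. Each was read from the probe sets that the platform annotation gives to that gene alone, and the brightest probe set by the mean of all arrays stood for it. This gave values for 36 of the 37 members, among 18193 genes measured in all. Trpv5, a calcium channel of the distal tubule, had no probe set of its own and was not analysed here.

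The samples were whole kidney rudiments at E13.5, hybridised as biotin-labelled cRNA from total RNA to Affymetrix MOE430.2 arrays. There were 3 Fz4-/- samples, whose label gives a loss of Fz4, the Wnt and Norrin receptor encoded by Fzd4, and 3 Fz4+/+ samples. Litters 1, 2 and 3 gave 1 sample of each genotype. The labels give neither the strain, nor the allele, nor the number of embryos per sample, so p-values cover only the spread between these samples.

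A tubule forms when mesenchyme condenses beside a branching ureteric tip, becomes an epithelial vesicle and then divides into proximal tubule, loop of Henle and distal tubule, while the ureteric tree itself becomes the collecting duct. Terminal transporters are segment specific: the proximal tubule recovers most glucose, amino acids, phosphate and bicarbonate, the loop and distal tubule dilute the urine, and the collecting duct adjusts sodium, water and acid. The sodium-potassium pump on the basolateral face supplies the sodium gradient for most of them. In the mouse embryo at this age the kidney holds mainly progenitors, branching ureteric epithelium, stroma and early nephron structures.

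The labels were checked on Fzd4, whose brightest probe set read 4.37, 3.58 and 6.22 in the Fz4-/- samples of litters 1 to 3 and 10.31 to 11.21 in the Fz4+/+ samples. The value of 6.22, in litter 3, was above the background limit of that array (5.62, set as described next). Of the other Fzd4 probe sets, 1 differed by -3.44 ± 0.35, and 1 that read 2.93 to 3.17 in every sample differed by 0.00 ± 0.11. The first difference, -6.16 ± 0.68 (SE) on the log2 scale, had an adjusted p of 0.999995 in limma, and the fit called 0 of 45037 probe sets at an adjusted p under 0.05. An unadjusted p under 0.05 was reached by 531 probe sets (1.18%). All 9 measured markers of the kidney rudiment (such as Six2, Wt1 and Ret) lay above background on every array. The median signal of the arrays ran from 6.62 to 6.74. Both arrays of litter 3 stood apart in their background, described next. The excess of 3' over 5' signal ran from 0.64 to 0.90 log2 for actin and from 0.75 to 0.90 for Gapdh, with Fz4-/- means of 0.75 and 0.79 and Fz4+/+ means of 0.81 and 0.85.

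The first question was which members were already expressed at E13.5. The files give no detection calls, so a background limit was set on each array from 74 receptor genes of the nose and tongue (olfactory, vomeronasal and taste receptors), at the 95th percentile of their signals. The limits were 6.96, 6.44 and 5.62 log2 on the Fz4-/- arrays of litters 1 to 3 and 6.88, 7.21 and 5.22 on the Fz4+/+ arrays. Both arrays of litter 3 thus had the lowest limits. The receptor medians ran from 3.49 to 4.05, so the limits mark the upper tail, and a gene near background can lie well above a typical receptor. Signals in that tail could change between arrays. Vmn2r84 read 9.19 on the Fz4+/+ arrays of litters 1 and 2 and 3.86 on that of litter 3. A gene was above background where all 6 values passed the limit of their array. It was near background where its mean was at or below 6.13, and in between otherwise. The value of 6.13 is the 95th percentile of the receptor genes' means over the 6 arrays.

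Of the 36 measured members, 8 were above background on every array, 5 were in between and 23 were near background. Over all genes, 54.5% were above background and 33.7% near it. The 8 members above background were Slc12a2, Calb1, Atp1b1, Slc4a4, Slc5a2, Fxyd2, Scnn1b and Aqp4. By segment, 2 of 16 proximal members, 4 of 11 members of the loop and distal tubule or shared by many segments, and 2 of 9 collecting duct members were above background. Near background were 11 proximal, 6 loop or distal and 6 collecting duct members. Probes bind with different strength, so a signal near the limit does not show that an RNA was absent, and signals of different genes were not ranked.

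**Figure D1:**
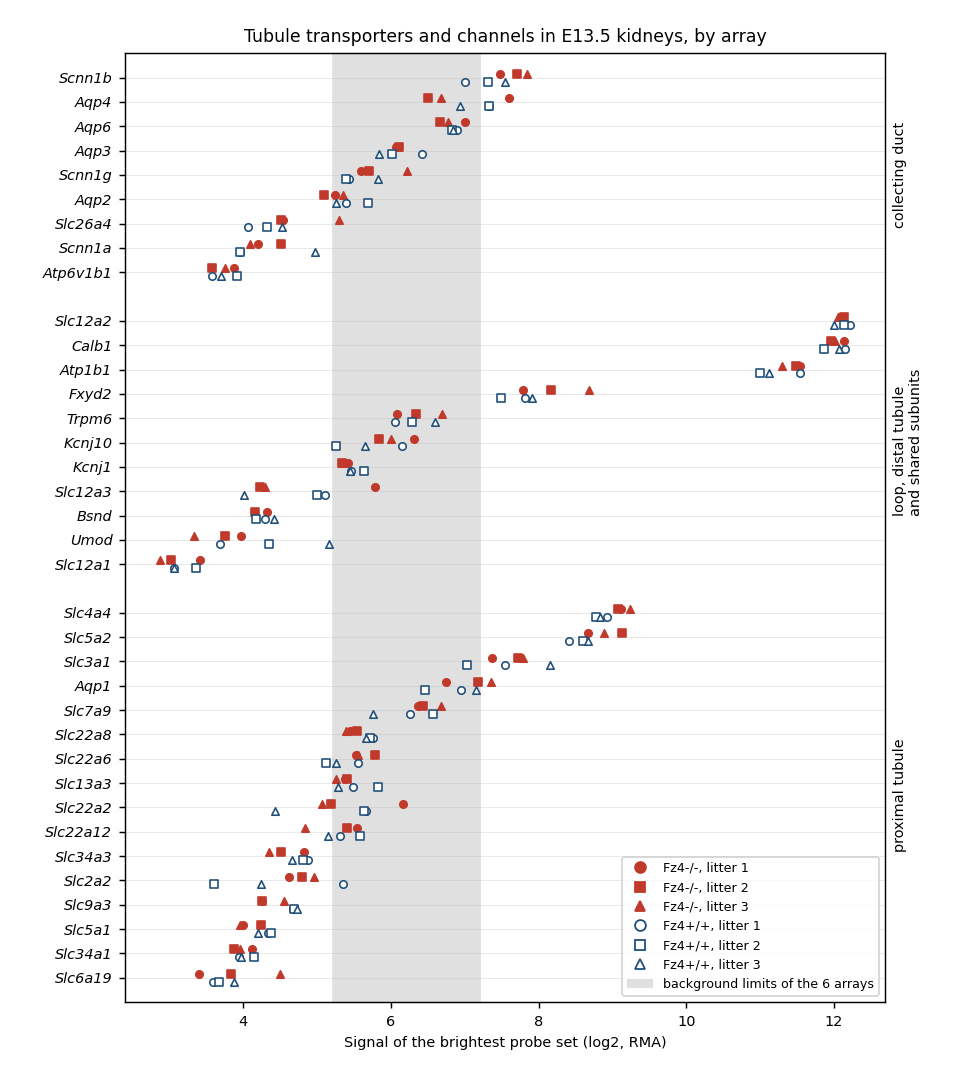
Log2 signal of the 36 measured members, 1 row per gene, grouped by segment. Red filled symbols are Fz4-/- and open blue symbols Fz4+/+ arrays, the shape gives the litter, and the grey band spans the background limits of the arrays, 5.22 to 7.21; Slc12a2, Calb1 and Atp1b1 lie far to its right.

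The limit mattered for a few members. Just inside, Scnn1b read 7.01 and 7.31 on the Fz4+/+ arrays of litters 1 and 2, against limits of 6.88 and 7.21, and Aqp4 read 6.51 on the Fz4-/- array of litter 2, against 6.44. Just outside were Slc3a1 and Aqp6, which passed the limit on 5 of 6 arrays and missed it on the Fz4+/+ array of litter 2 at 7.03 and 6.83. Aqp3, with a mean of 6.09, fell just inside the group near background, and Trpm6, with 6.34, just outside it. With the 99th percentile as the limit 5 members were above background, namely Slc5a2, Slc12a2, Slc4a4, Atp1b1 and Calb1, and with the 90th percentile 10. With the mean of each gene's probe sets there were 6, without Slc4a4, Aqp4 and Fxyd2 and with Slc3a1. The shares of all genes above background at these other settings are not given here, so the counts cannot be set against them.

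**Figure D2:**
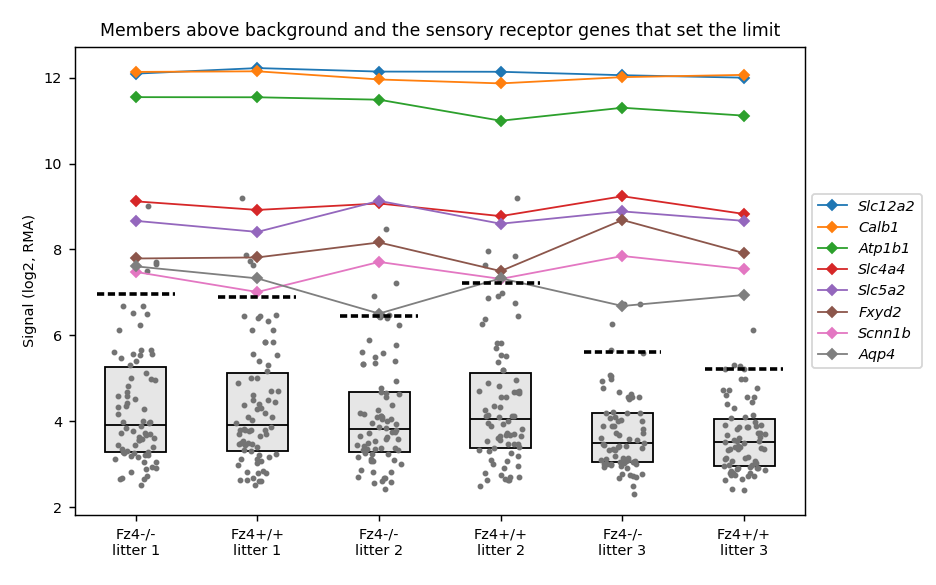
Log2 signal on each array of the 8 members above background (diamonds joined by lines) and of the 74 sensory receptor genes (grey points; box, middle 50% with the median). The dashed bars are the limits, which are lowest in litter 3, at 5.62 and 5.22.

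For the genotype, 0 of the 36 members passed an adjusted p of 0.05 in limma, where 0.0% of all genes did, and every member had an adjusted p of 0.999995. At an unadjusted p under 0.05 there were 2 members, Slc4a4 and Slc9a3, against 1.09% of all genes. With the litter as a block there were 6, against 2.74% of all genes: Slc5a2, Slc4a4, Slc26a4, Scnn1b and Kcnj10 with higher and Slc9a3 with lower means in Fz4-/- samples. Their adjusted p in limma with the block was 0.999986. The median difference over the members was 0.0050 log2, beside 0.012 over all genes, and single differences ran from -0.71 to 0.48 log2. Means were higher in Fz4-/- samples for 19 members and lower for 17, where 54.1% of all genes had a higher mean.

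The proximal tubule members came first by function. Slc4a4 encodes the basolateral sodium bicarbonate cotransporter, which returns reclaimed bicarbonate to blood. It read 9.12, 9.07 and 9.24 log2 in the Fz4-/- samples of litters 1 to 3 and 8.92, 8.78 and 8.83 in the Fz4+/+ samples. Every Fz4-/- value lay above every Fz4+/+ value, and the difference was 0.30 ± 0.11 (SE, n = 3 a genotype), with an unadjusted limma p of 0.0321 and an adjusted p of 0.999995. Within litters the difference was 0.20, 0.29 and 0.41. Of its 4 other probe sets, 1 was also above background on every array and differed by 0.31 ± 0.14, and 2 had the opposite sign, at -0.05 ± 0.39 and -0.01 ± 0.22.

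Slc5a2, the sodium glucose cotransporter that recovers most filtered glucose, read 8.67, 9.13 and 8.89 in Fz4-/- samples and 8.41, 8.60 and 8.67 in Fz4+/+ samples. The groups did not overlap, but the lowest Fz4-/- value and the highest Fz4+/+ value both rounded to 8.67. The difference was 0.34 ± 0.16, with an unadjusted limma p of 0.0757 and 0.0408 with the litter block. It was 0.26, 0.53 and 0.22 in litters 1 to 3, and 0.33 ± 0.16 on the second probe set, which was above background on all 6 arrays too. In RefSeq genes of GRCm38.p6 Slc5a2 overlaps Rusf1, which read 8.08, 9.25 and 8.91 in Fz4-/- and 7.98, 8.52 and 9.10 in Fz4+/+ samples. Where the probes lie was not analysed, and the brightest probe set of Slc5a2 is of a class that can match more than 1 transcript, as is that of Fxyd2. Slc3a1 and Atp1b1 likewise overlap Prepl and Nme7.

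The related glucose carriers were near background. Slc5a1, a glucose transporter of the late proximal tubule, had a mean of 4.19 log2, and Slc2a2, which lets glucose out across the basolateral membrane, a mean of 4.60. Slc2a2 is a liver gene as well, and it passed the background limit on 0 arrays. Its difference was -0.74, 1.19 and 0.73 in litters 1 to 3. The median difference of 11 measured liver markers was -0.09, -0.23 and -1.08, and the part of liver RNA in the Slc2a2 signal was not tested. The amino acid transporters divided between bands. Slc3a1 and Slc7a9, the subunits of the cystine carrier, lay in between, with means of 7.60 and 6.35, and Slc6a19, a carrier of neutral amino acids, was near background at 3.81.

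Slc9a3, the apical sodium-hydrogen exchanger that drives bicarbonate uptake, was near background with no overlap between the genotypes. It read 4.26, 4.25 and 4.56 in Fz4-/- samples and 4.68, 4.69 and 4.73 in Fz4+/+ samples. The difference was -0.34 ± 0.13, with an unadjusted limma p of 0.0341, and within litters it was -0.42, -0.44 and -0.17. Its second probe set had the opposite sign, at 0.12 ± 0.14. All of these values lay under the limits of their arrays.

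Of the organic ion carriers, Slc22a8, an anion exchanger of the basolateral membrane, also showed no overlap near background. It read 5.45, 5.54 and 5.40 in Fz4-/- against 5.75, 5.71 and 5.66 in Fz4+/+ samples. The difference was -0.25 ± 0.10, with an unadjusted limma p of 0.0528, and it was below 0 in each litter. The second probe set differed by 0.02 ± 0.15. Slc22a6, a close relative, differed by 0.31 ± 0.16 with overlapping groups, and Slc22a12, the urate exchanger, by -0.09 ± 0.23.

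Slc22a2, the organic cation transporter, had litter means further apart than its genotype means. It read 6.17, 5.19 and 5.06 in Fz4-/- samples and 5.66, 5.64 and 4.43 in Fz4+/+ samples. Its litter means were 5.91, 5.42 and 4.75, and the genotype difference of 0.23 ± 0.44 was above 0 in litters 1 and 3. The remaining proximal members near background were the phosphate transporters Slc34a1 and Slc34a3, with means of 4.0 and 4.67, and the dicarboxylate carrier Slc13a3, with a mean of 5.44. Aqp1, the water channel of proximal tubule and thin limb, was in between with a mean of 6.97. Endothelium and red cells hold Aqp1 too; the 10 endothelial markers averaged 9.23 to 9.31 in Fz4-/- and 9.05 to 9.25 in Fz4+/+ samples, the 8 red cell markers 8.47 to 8.86 and 8.07 to 9.70, and their part in the signal was not tested.

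HNF4 proteins are nuclear receptors of the tubule epithelium, so the 250 bases before the start of each member were searched on both strands for CAAAGTCCA, an element they are known to bind. RefSeq windows of the assembly GRCm38.p6 were held for 30 of the 37 members. The choice of letters was made after matches had been looked at. The element was in 1 member, Slc3a1, and in 0.384% of 32851 windows. Its first base lay 39 bases before the start. Slc3a1 passed the background limit on 5 of 6 arrays, and whether its signal relates to the element was not tested. The match is printed 5′ to 3′ on the strand of the gene, with the matching letters in capitals:
Slc3a1, chr17:85028287-85028337, plus strand: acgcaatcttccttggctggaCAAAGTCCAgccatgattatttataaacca

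A match is a description of letters, and binding was not measured here.

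The named carriers of the loop of Henle were near background. Slc12a1, the cotransporter blocked by loop diuretics, had a mean of 3.13 log2 and a difference of -0.06 ± 0.18. Umod, which encodes uromodulin of the thick limb, had a mean of 4.05 and a difference of -0.71 ± 0.39, the lowest of all members. Its Fz4+/+ values were 3.68, 4.36 and 5.16 and its Fz4-/- values 3.97, 3.76 and 3.34, so the groups overlapped and the litter differences of 0.29, -0.60 and -1.83 differed in sign. On dropping the Fz4+/+ array of litter 3 the difference was -0.33.

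Kcnj1, the apical potassium channel of the thick limb and collecting duct, read 5.41, 5.34 and 5.34 in Fz4-/- and 5.46, 5.63 and 5.45 in Fz4+/+ samples. These values did not overlap, and the difference was -0.15 ± 0.11 with an unadjusted limma p of 0.214. Its second probe set differed by 0.03 ± 0.12. Bsnd, the accessory subunit of the chloride channels, and Slc12a3, the thiazide-sensitive cotransporter, had means of 4.25 and 4.74 and differences of -0.08 ± 0.12 and 0.06 ± 0.51.

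Slc12a2 encodes a sodium-potassium-chloride cotransporter of basolateral membranes that many cell types use. It read 12.09, 12.14 and 12.06 in Fz4-/- and 12.22, 12.14 and 11.9997 in Fz4+/+ samples, which overlapped, with a difference of -0.02 ± 0.11. Calb1, a calcium-binding protein of the distal tubule that is also known in ureteric epithelium, read 12.13, 11.96 and 12.01 against 12.15, 11.87 and 12.07. Its difference was 0.01 ± 0.12. On these brightest probe sets the SD over all 6 samples was 0.077 and 0.11. Another Calb1 probe set, above background on all 6 arrays too, ran more widely, from 7.92 to 9.18, and differed by 0.23 ± 0.35.

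The pump subunits were above background. Atp1b1, the beta subunit of the sodium-potassium pump, read 11.55, 11.49 and 11.30 in Fz4-/- and 11.54, 11.00 and 11.12 in Fz4+/+ samples. The groups overlapped at a difference of 0.23 ± 0.18. Fxyd2, the gamma subunit that tunes the pump, read 7.79, 8.16 and 8.69 against 7.81, 7.50 and 7.91, a difference of 0.47 ± 0.25 that was -0.03, 0.67 and 0.77 in litters 1 to 3. The Fz4-/- samples of litters 2 and 3 were above all Fz4+/+ samples and that of litter 1 was not. Of 3 other Fxyd2 probe sets, 1 had the opposite sign, at -0.29 ± 0.11.

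Kcnj10 and Trpm6 had the smallest unadjusted p values for litter among the members. Kcnj10, a basolateral potassium channel of the distal tubule, read 6.32, 5.85 and 6.0 in Fz4-/- and 6.15, 5.26 and 5.65 in Fz4+/+ samples. It was highest in litter 1, and its genotype difference of 0.37 ± 0.26 was above 0 in every litter, at 0.17, 0.59 and 0.35. Trpm6, the magnesium channel, read 6.08, 6.34 and 6.69 against 6.05, 6.28 and 6.59, with litter means of 6.07, 6.31 and 6.64 and a genotype difference of 0.06 ± 0.21. Its second probe set differed by -0.39 ± 0.33.

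In the collecting duct, the subunits of the epithelial sodium channel differed in band. Scnn1b, the beta subunit, was above background and read 7.48, 7.71 and 7.85 in Fz4-/- and 7.01, 7.31 and 7.54 in Fz4+/+ samples. In each litter the Fz4-/- sample was higher, by 0.47, 0.40 and 0.30, while the groups overlapped across litters. The difference was 0.39 ± 0.18, with an unadjusted limma p of 0.0730 and 0.0160 with the litter block. Scnn1g, the gamma subunit, was near background and read 5.60, 5.70 and 6.22 against 5.43, 5.39 and 5.83, a difference of 0.29 ± 0.21 that was above 0 in each litter. Scnn1a, the alpha subunit, had a mean of 4.28 and a difference of -0.03 ± 0.31, with litter values of 0.24, 0.55 and -0.88.

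The markers listed for ureteric epithelium lay on the same side as Scnn1b, while of the 9 collecting duct members 4 had a higher and 5 a lower mean. All 10 of 10 markers had a higher mean in Fz4-/- samples, though Hoxb7, near background, by only 0.001 ± 0.14. The median difference was 0.24 log2, with litter medians of 0.06, 0.50 and 0.22, and 0 passed the adjusted threshold. The markers' mean level was 8.52 to 8.72 in Fz4-/- and 8.09 to 8.52 in Fz4+/+ samples, and 7 were above background. A higher mean was found in 54.1% of all genes and in 64.8% of those above background. Markers of early nephron epithelium lay on the same side as Slc4a4 and Slc5a2: 7 of 9 had a higher mean, and 5 were above background. Their mean level was 8.77 to 8.96 against 8.43 to 8.87. Of the 16 proximal members 9 had a higher and 7 a lower mean, and Slc9a3 and Slc22a8 were lower without overlap. Of the 9 kidney rudiment markers 4 had a higher mean, with a median difference of -0.10. Among them Ret and Wnt11, of ureteric tips, differed by -0.18 ± 0.11 and -0.10 ± 0.16, Ret without overlap. Wnt9b and Gata3, at 0.30 ± 0.16 and 0.17 ± 0.18, stood in both the rudiment and the ureteric list. The ureteric count thus depends on which genes were listed. The part of these markers in the members' differences was not tested. In whole kidneys, fewer cells of a type and less RNA per cell cannot be told apart.

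The water channels of the collecting duct lay in all bands. Aqp2, the apical channel that vasopressin moves to the membrane, and Aqp3, a basolateral one, were near background with means of 5.34 and 6.09 and differences of -0.22 ± 0.15 and 0.00 ± 0.17. Aqp6, found in intercalated cells, was in between with a mean of 6.84. Aqp4, a basolateral channel of principal cells and of glia, read 7.61, 6.51 and 6.68 in Fz4-/- and 7.33, 7.33 and 6.94 in Fz4+/+ samples. The groups overlapped, at a difference of -0.27 ± 0.31 that was 0.28, -0.82 and -0.26 in litters 1 to 3. The 2 other Aqp4 probe sets, with means of 4.13 and 3.31, passed the limit on 0 arrays. They differed by -0.38 ± 0.19 and 0.03 ± 0.14. Of 10 measured nerve and glia markers 2 had a higher and 8 a lower mean in Fz4-/- samples, where 54.1% of all genes had a higher mean. All 10 averaged 6.42 to 6.80 against 6.55 to 7.34. Among those of glia and their precursors Sox10 differed by -0.27 ± 0.10, Erbb3 by -0.06 ± 0.10 and Fabp7 by 0.18 ± 0.30, while Chgb, of neuroendocrine cells, differed by -1.86 ± 0.87. All 10 muscle markers had a lower mean, with a median difference of -0.85 and litter medians of -0.15, -2.30 and -0.09. The part of these markers was not tested.

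The genes of acid-base handling in intercalated cells were near background. Slc26a4, the apical chloride-bicarbonate exchanger pendrin, had a mean of 4.54 and a difference of 0.48 ± 0.25, which was above 0 in each litter, at 0.48, 0.19 and 0.78. Atp6v1b1, a subunit of the proton pump, had a mean of 3.73 and a difference of 0.00 ± 0.14.

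**Figure D3:**
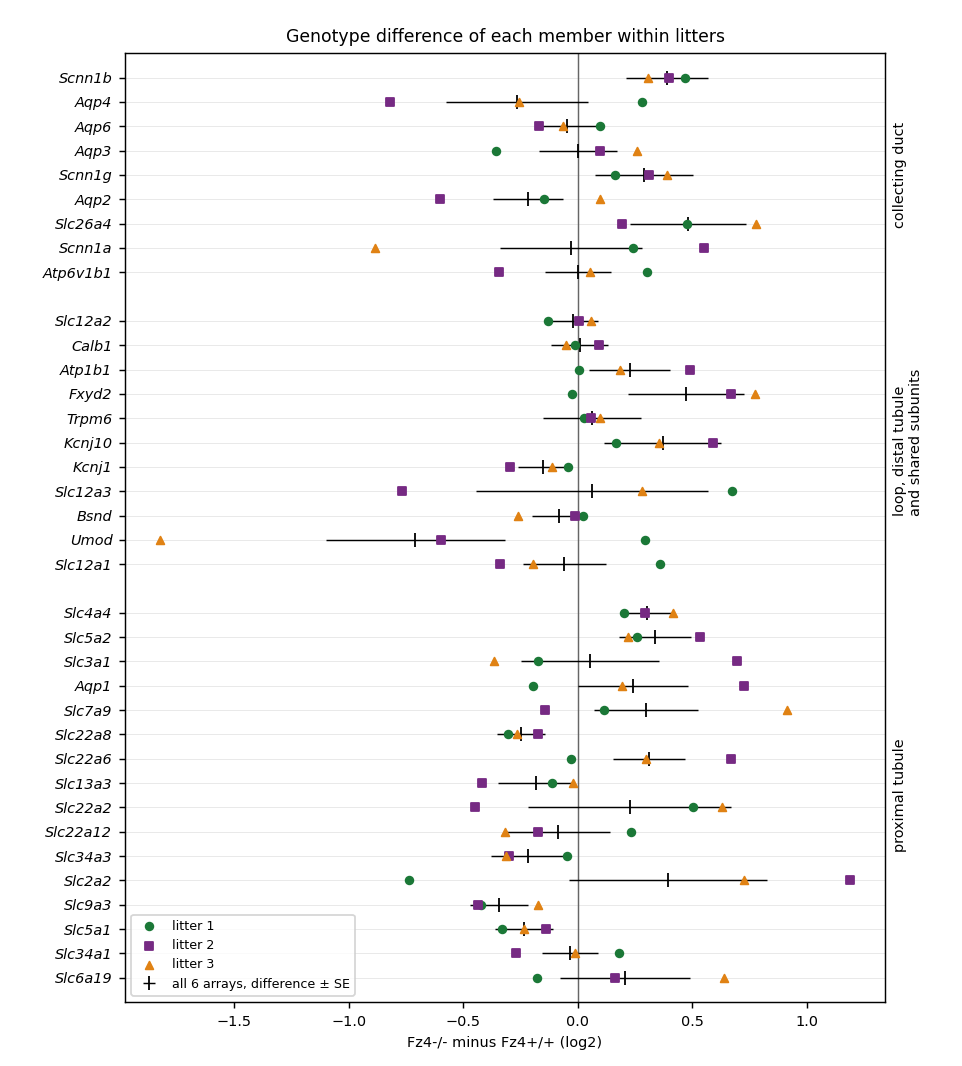
Fz4-/- minus Fz4+/+ in log2 for the 36 measured members, with the mean difference and its SE and the 3 litter differences as separate points. Differences run from -0.71 for Umod to 0.48 for Slc26a4, and 14 members have the same sign in all 3 litters.

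Within litters, 14 of 36 members (38.9%) kept one direction in all 3, against 23.1% of all genes. Of these, 8 were higher in Fz4-/- samples throughout, against 12.7% of all genes, and 6 were lower throughout, against 10.4%. Counts were then taken by band. Among members above background 6 of 8 had a higher mean, where 64.8% of such genes did, and 4 of 8 were higher in every litter, against 16.2%. Among members near background 9 of 23 had a higher mean, where 34.1% of such genes did, and 6 of 23 were lower in every litter, against 16.7%. The median difference was 0.26 in the former and -0.03 in the latter, beside 0.03 and -0.07 over all genes of those bands.

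The genotypes did not overlap in 5 members, against 4.69% of all genes. Slc4a4 and Slc5a2 were higher, against 2.2% of all genes, and Slc9a3, Slc22a8 and Kcnj1 were lower, against 2.5%. The higher pair was above background, where 2 of 8 members and 3.8% of genes did not overlap. The 3 lower members were near background, where 3 of 23 members and 6.48% of genes did not. An exact permutation test over 3 against 3 samples cannot give a two-sided p below 0.1. Each of these 5 had that p because groups without overlap always do, so it adds nothing to the count. On dropping the Fz4-/- array of litter 1, 2 or 3 the count was 13, 7 or 6, where 14.8%, 8.37% or 10.4% of all genes did not overlap. On dropping the Fz4+/+ array of litter 1, 2 or 3 it was 11, 6 or 12, where 11.8%, 9.26% or 26.5% of all genes did not. The count of 2 members at an unadjusted p under 0.05 became 3, 0 or 1 on dropping the Fz4-/- array of litter 1, 2 or 3. Of all genes 1.97%, 0.517% or 0.748% then had such a p. The count became 6, 0 or 1 on dropping the Fz4+/+ array of litter 1, 2 or 3, beside 1.34%, 0.748% or 5.51% of all genes.

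For the litters, 0 members passed an adjusted p of 0.05 in limma's F test with genotype in the model, against 0.0% of all genes, and the lowest adjusted p among members was 0.187. At an unadjusted p under 0.05 there were 5, against 16.9% of all genes: Trpm6 at 0.0179, Kcnj10 at 0.0234, Scnn1g at 0.0252, Slc22a2 at 0.0368 and Scnn1b at 0.0482. Trpm6, Scnn1g and Scnn1b were highest in litter 3, Kcnj10 and Slc22a2 in litter 1. The highest and the lowest litter mean differed by a median of 0.34 log2 over the members and 0.30 over all genes. Litter 3 had the lowest mean in 13 of 23 members near background, where 49.7% of genes near background did, and its background limits were the lowest as well. Slc22a2 passed the background limit on 0 arrays, and its lowest litter mean, 4.75, was in litter 3 too. Each fit with an array dropped keeps 1 sample of that litter. The share of all genes past an adjusted p of 0.05 in such fits is not given here. When the Fz4-/- array of litter 2 was dropped, Slc22a2 had an adjusted limma p of 0.0477 for litter and was the 1 member called. The count at an unadjusted p under 0.05 was then 8, beside 23.2% of all genes. It was 7 on dropping the Fz4+/+ array of litter 2 (18.5% of all genes). For litter 1 it was 2 and 3 on dropping the Fz4-/- and the Fz4+/+ array (9.53% and 11.1%). For litter 3 it was 1 on dropping either of them (9.84% and 4.94%).

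Other genes of tubule transport were set beside the members. Of 62 listed carriers, channels and pump subunits 55 were measured, and 21 were above background, 8 in between and 26 near it. Their means were higher in Fz4-/- samples in 35 and lower in 20, where 54.1% of all genes had a higher mean. The median difference was 0.05 log2. In limma with genotype alone 0 passed the adjusted threshold, and 0 had an unadjusted p under 0.05. With the litter as a block the unadjusted limma p was 0.0110 for Slc15a2, 0.0315 for Slco4c1 and 0.0327 for Slc7a8. Their adjusted p was 0.999986. Without the block the smallest p values belonged to Kcnj16, a partner of Kcnj10 (0.45 ± 0.29), and Slc22a7, an anion carrier (0.16 ± 0.12). Next came Slc15a2, a peptide carrier (0.57 ± 0.42), and Slc5a8, a lactate carrier (-0.54 ± 0.41). Kcnj16 and Slc15a2 were above background, and Slc22a7 and Slc5a8 near it.

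Of 19 kinases, receptors and partners that act on the transporters 18 were measured, with 10 above background. Means were higher in 11 and lower in 7, where 54.1% of all genes had a higher mean. The median difference was 0.03, and 0 passed limma's adjusted threshold or an unadjusted p under 0.05. Pdzk1, a scaffold for apical carriers of the proximal tubule, was in between, read 7.19, 7.53 and 7.43 in Fz4-/- and 7.08, 6.48 and 7.18 in Fz4+/+ samples and did not overlap, at 0.47 ± 0.22. Casr, the calcium-sensing receptor, Avpr2, the vasopressin receptor, and Kl, the FGF23 co-receptor, were near background with differences of -0.32 ± 0.20, 0.45 ± 0.36 and -0.32 ± 0.30.

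Of 21 transcription regulators of tubules 18 were measured, 12 of them above background. Means were higher in Fz4-/- samples in 15 and lower in 3, with a median difference of 0.13 and 0 past limma's adjusted threshold. Of all genes 54.1% had a higher mean, and of those above background 64.8%. At an unadjusted limma p under 0.05 there were 2 of 18, beside 1.09% of all genes, both near background: Esrrb, an orphan nuclear receptor, at -0.48 ± 0.12, and Irx1, a homeobox gene, at 0.65 ± 0.23. Tfcp2l1, a regulator of collecting duct cells, and Tfap2b, of the distal nephron, were above background and differed by 0.25 ± 0.13 and 0.20 ± 0.11. Hnf4a, named after its values were seen because its element was searched for, read 9.04, 9.28 and 9.01 in Fz4-/- and 9.14, 7.10 and 8.42 in Fz4+/+ samples. Its lowest value was the Fz4+/+ sample of litter 2, and the difference of 0.89 ± 0.50 had an unadjusted limma p of 0.123.

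**Figure D4:**
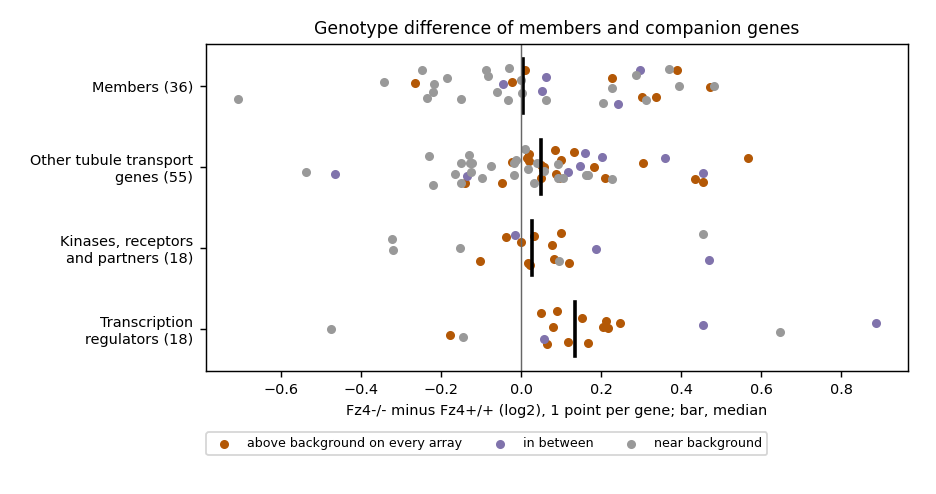
Fz4-/- minus Fz4+/+ in log2 for the members and 3 companion lists, 1 point per gene, coloured by band, with the median as a bar. The medians are 0.0050, 0.05, 0.03 and 0.13, and points of every list lie on both sides of 0.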

How the data were processed

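Signals of 6 arrays were used, 3 of each genotype. The authors deposited log2 values per probe set from RMA (version not given in the sources used here), per the submitters' processing notes; these run from 2.22 to 14.79. RMA equalises the arrays' distributions and compresses differences near background. After 64 of 45101 probe sets were left out as controls, all 45037 were tested with no filter. The annotation gave 1 gene to 34945 of them, several to 932 and none to 9160.

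The genotype difference was fitted in R 4.3.3 by limma 3.58.1 (lmFit, eBayes, two-sided, Benjamini-Hochberg over all probe sets, threshold 0.05), with genotype as the sole term. Litters were compared by limma's F test with genotype in the model. Differences are Fz4-/- minus Fz4+/+, and errors are the fit's SE unless named otherwise. The fit was also run on simulated data with arrays drawn independently, so for genotype a shared spread within litters was not covered. Its outcome is not reported here. Values in every sample are given for members above background, without overlap, or among the 5 smallest p values for genotype or litter; Umod was added after its values were seen. Up to 4 genes of each companion list are named by smallest p. The members, lists and rules were chosen with earlier results of these data known.

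Samples of the 2 genotypes with 1 replicate number come from 1 litter, per the labels, and were taken as pairs; their deviations from genotype means correlated by 0.524, 0.120 and 0.770 in litters 1 to 3, while the Fz4-/- sample of litter 1 correlated more with the Fz4+/+ sample of litter 2, by 0.618. Alternatives covered the litter block, filter, variance prior, array weights, normalisation, probe set choice, background limit and samples left out. The number of arrays limits the precision. Some items are not reported here.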

Additional observations from a re-analysis of the deposited data

How the results depend on the processing

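With the litter as a replicate block, which pairs the samples, 6 members had an unadjusted p under 0.05 for genotype in place of 2; both reported members were among them. Of all genes 2.74% had such a p with the block, beside 1.09% without it. The count was 7 with the litter as a random block (3.34% of all genes) and 12 with array weights (20.0%). It was 1 of 14 members left by the 40th percentile filter (0.75%) and 1 with an intensity-dependent prior (0.803%). After quantile normalisation it was 0 (1.2%), and with the mean of each gene's probe sets 0 (1.3%). With each sample left out it was 0 to 6 (0.517% to 5.51%). No setting gave a member with an adjusted p under 0.05 for genotype. For litter the unadjusted count of 5 (16.9% of all genes) became 2 of 14 with the filter (19.8%) and 3 with litter as the sole term (20.5%). With a sample left out it was 1 to 8 (4.94% to 23.2%), and the adjusted count was 0 to 1. Members without overlap were 3 after quantile normalisation (5.16% of all genes) and 2 with probe set means (4.61%). With a sample left out they were 6 to 13 (8.37% to 26.5%). Members with one direction in every complete litter were 16 to 28 with a sample, and so 1 litter, left out, where 45.7% to 51.8% of all genes had one direction. Members above background were 5 at the 99th percentile limit, 10 at the 90th and 12 with the 40th percentile of all probe sets as the limit. They were 6 with probe set means (5 of the 8 shared) and 8 to 10 with a sample left out, the latter for Fz4+/+ of litter 2. Shares of all genes above background at these settings are not given here. The median difference was -0.031 to 0.039 with a sample left out. For the 16 members given in every sample, quantile normalisation, probe set means (where a gene has several) and each sample left out gave 124 differences, of which 8 had the opposite direction: Trpm6 was -0.16 with probe set means, and with a sample left out Trpm6 ran from -0.10 to 0.21, Slc22a2 from -0.18 to 0.44, Slc12a2 from -0.083 to 0.029 and Calb1 from -0.072 to 0.069. The causes were not tested. Signals near background limit what can be read for 23 members.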
